A study of Rattus norvegicus with 26 samples.

Results

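A set of 36 interferon response genes was followed in the rat dentate gyrus (DG), the granule cell region of the hippocampus. They were taken as a list of names, with no cutoff on a measured value, and the list was drawn up with earlier results of these data known. Of these, 34 were listed under their own name, and 33 passed the filter on low values (a mean over all rats of 5 or more normalized counts) and were tested, out of 15595 genes tested and 17910 genes listed. Sp100, a nuclear body protein, did not pass, with at most 5.34 normalized counts in a rat. Zbp1, a sensor of nucleic acids, and Tmem173, the adaptor of cytosolic DNA sensing, were not listed under these names. Sting1, the current symbol of Tmem173, was listed and is described apart from the members, because it was looked up after the values had been seen. The 4 members Oas1f, Isg20, Dcst1 and Mx2 are among the genes that the study itself picked as changed in these rats, so their direction is not independent evidence.

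The rats were F344 males 6 months of age, and each library came from the DG of 1 rat: 10 rats were treated as Veh, 8 as Dox and 8 as Dox + ABT. Veh rats received vehicle and, by the methods of the study, also belonged to an ongoing study of brain aging. Dox rats received doxorubicin (Dox), an anthracycline used against tumors, in weekly injections. Dox + ABT rats received the same doxorubicin course together with ABT-263 (navitoclax), an inhibitor of Bcl-2 family proteins that is used to remove senescent cells. No group given ABT-263 alone was analysed here. Whole pieces of tissue were sequenced, and fewer cells of a type and less RNA per cell cannot be told apart in such data.

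Type I interferons bind a receptor made of IFNAR1 and IFNAR2, whose kinases JAK1 and TYK2 phosphorylate STAT proteins. STAT2 joins IRF9 in a complex that enters the nucleus, binds the interferon-stimulated response element and turns on a large set of genes, many of which block a step of viral growth. In the brain, microglia, endothelium, astrocytes and neurons all respond to interferon, and a low tonic response is present without infection.

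The response element was searched in promoters because it links the members by sequence and not by value. RefSeq promoters of build GRCr8, each 300 bases long from 250 before to 50 after the annotated start, were found for 25 of the 36 members. The element, written GAAANNGAAA and matched on both strands, lay in the promoters of 13 of these 25 members (52%), against 1312 of 33469 promoters in the whole table (3.92%), where a gene can have more than 1 promoter. The gamma-activated site, written TTCNNNGAA, lay in 8 of the 25 (32%), against 8.87% of all promoters. A match is a string of letters and not a measured binding site. The 13 members with the element were Bst2, Eif2ak2, Ifi27, Ifi44, Ifih1, Ifit3, Ifitm3, Irf7, Isg20, Oas1a, Parp14, Rsad2 and Xaf1. The promoters of 6 antiviral effectors are given here, because these hold the element and their genes had p under 0.05 in at least 1 of the comparisons below. Capitals mark the element, and the letters run 5′ to 3′ on the strand of the gene.
Bst2, chr16:18254918-18255217, minus strand: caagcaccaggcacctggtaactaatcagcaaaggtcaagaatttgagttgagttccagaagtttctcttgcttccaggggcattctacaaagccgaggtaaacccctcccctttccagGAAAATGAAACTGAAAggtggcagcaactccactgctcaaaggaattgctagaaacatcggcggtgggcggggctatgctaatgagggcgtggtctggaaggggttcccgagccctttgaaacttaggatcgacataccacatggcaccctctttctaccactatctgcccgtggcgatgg
Oas1a, chr12:41330216-41330515, plus strand: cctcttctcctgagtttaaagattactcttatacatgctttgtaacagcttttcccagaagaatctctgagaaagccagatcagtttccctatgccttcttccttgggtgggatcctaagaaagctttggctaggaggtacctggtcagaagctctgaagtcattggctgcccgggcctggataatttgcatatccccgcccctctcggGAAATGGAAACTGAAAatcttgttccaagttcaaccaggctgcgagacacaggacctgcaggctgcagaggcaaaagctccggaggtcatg
Xaf1, chr10:57415685-57415984, plus strand: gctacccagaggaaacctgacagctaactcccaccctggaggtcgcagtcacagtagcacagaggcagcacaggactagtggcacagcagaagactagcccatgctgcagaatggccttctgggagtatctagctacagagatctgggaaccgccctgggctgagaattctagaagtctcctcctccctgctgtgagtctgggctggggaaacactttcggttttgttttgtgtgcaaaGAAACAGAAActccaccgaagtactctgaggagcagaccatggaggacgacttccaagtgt
Isg20, chr1:142239809-142240108, plus strand: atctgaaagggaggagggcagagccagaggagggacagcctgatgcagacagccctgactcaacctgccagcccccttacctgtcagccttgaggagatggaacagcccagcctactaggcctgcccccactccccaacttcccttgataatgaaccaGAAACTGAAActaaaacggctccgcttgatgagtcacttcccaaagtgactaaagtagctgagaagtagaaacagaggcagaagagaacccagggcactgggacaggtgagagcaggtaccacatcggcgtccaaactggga
Ifit3, chr1:241527076-241527375, plus strand: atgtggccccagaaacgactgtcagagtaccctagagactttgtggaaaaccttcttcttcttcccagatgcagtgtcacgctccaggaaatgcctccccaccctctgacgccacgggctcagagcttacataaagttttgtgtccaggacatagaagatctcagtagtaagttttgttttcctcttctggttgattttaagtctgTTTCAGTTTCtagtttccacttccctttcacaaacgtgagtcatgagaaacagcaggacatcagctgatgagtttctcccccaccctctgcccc
Rsad2, chr6:48788071-48788370, minus strand: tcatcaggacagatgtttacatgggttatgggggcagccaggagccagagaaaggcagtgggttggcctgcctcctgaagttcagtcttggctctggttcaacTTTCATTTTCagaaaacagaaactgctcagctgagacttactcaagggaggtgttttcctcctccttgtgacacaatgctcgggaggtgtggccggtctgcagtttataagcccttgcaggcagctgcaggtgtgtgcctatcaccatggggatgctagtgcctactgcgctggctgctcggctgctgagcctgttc
In Bst2 and Oas1a, 2 overlapping copies of the element formed 1 longer run of capitals. The element began 131 bases before the start in Bst2, 41 in Oas1a, 11 in Xaf1, 92 in Isg20, 44 in Ifit3 and 147 in Rsad2. Between Dox and Veh, the log2 fold changes of these 6 genes had both signs and ran from -0.92 to 0.94.

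Differences were tested with limma (moderated, two-sided) on log2(normalized count + 1), with all 26 rats in 1 fit, and genes were called at the unadjusted p under 0.01 that the study used. An adjusted p below is Benjamini-Hochberg over the 15595 tested genes. Where p under 0.05 is named below, the share of all tested genes at that level was not taken. Counts at that level therefore have no background to be read against. Fold changes are differences on this log2 scale and understate the change of low genes. The levels given are normalized counts of a gene, are not corrected for gene length and are compared only between rats.

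The first comparison asked what doxorubicin did to these genes. Against the Veh group, 4 of the 33 members (12.1%) passed p under 0.01 in the Dox group, where 2.87% of all tested genes did. Dcst1, a membrane protein that limits interferon signaling by acting on STAT2, rose. The 3 antiviral genes that fell were Bst2 (tetherin), which holds budding virus at the cell surface, Mx2, a dynamin-like GTPase with antiviral activity, and Dhx58 (LGP2), a helicase that regulates sensing of viral RNA. Of all tested genes, 1.02% were called higher and 1.85% lower. Without the 4 members that the study picked, 2 of 29 were called (6.90%). No member passed an adjusted p under 0.05, and the smallest was 0.0519 for Dcst1. In direction, 15 members were higher and 18 lower in Dox than in Veh, with a median log2 fold change of -0.088 against 0.0050 over all tested genes.

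Dcst1 ranged from 4.08 to 13.3 normalized counts (median 7.45) in Veh, from 8.38 to 69.7 (median 23.8) in Dox and from 6.12 to 21.6 (median 9.95) in Dox + ABT. The Veh median was exceeded by all 8 Dox rats, and 7 of the 8 were above every Veh rat. The highest were Dox rats 1 and 2, with 64.9 and 69.7 normalized counts. The log2 fold change of Dcst1 was 1.75 (SE 0.33, p = 1.33e-05, limma). Without Dox rats 1 and 2 it was 1.30 (p = 0.000229).

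Bst2 ranged from 33.2 to 115 normalized counts (median 55.5) in Veh, from 19.9 to 61.9 (median 32.3) in Dox and from 44.1 to 81.4 (median 67.2) in Dox + ABT. The 4 Dox rats 1, 2, 5 and 7 had 19.9 to 24.4 normalized counts and lay below every Veh rat. The other 4 Dox rats lay within the range of the Veh rats. The log2 fold change was -0.84 (SE 0.23, p = 0.000982, adjusted p = 0.166, limma), and -0.37 (p = 0.0969) with arrayWeights, limma's weighting of libraries by their spread. Its promoter, printed above, is one of the 2 with overlapping copies of the element. Summed microglial markers in these 4 rats were 6188, 6839, 4875 and 6616 normalized counts, against 4977 to 8820 in Veh. Summed astrocyte markers in the same rats were 31968, 31180, 33474 and 35287, each below the lowest Veh sum of 36662. Low astrocyte sums were not particular to these 4 rats, since the whole Dox group ranged from 30397 to 37951 (median 33174). The part of either cell type in the Bst2 values was not tested.

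Mx2 ranged from 248 to 455 normalized counts (median 302) in Veh, from 94.7 to 334 (median 211) in Dox and from 205 to 385 (median 234) in Dox + ABT. Every Veh rat was above 5 of the 8 Dox rats and 5 of the 8 Dox + ABT rats. Dox rats 1 and 2 were again among the lowest, with 116 and 94.7 normalized counts. The log2 fold change between Dox and Veh was -0.69 (SE 0.19, p = 0.00109, limma). Dhx58 ranged from 40.8 to 96.1 (median 62.8) in Veh, from 34.0 to 53.8 (median 43.6) in Dox and from 39.8 to 73.5 (median 45.1) in Dox + ABT. For Dhx58, each of the 8 Dox rats fell short of the Veh median and 3 were below every Veh rat. Its log2 fold change between Dox and Veh was -0.53 (SE 0.16, p = 0.00296, limma), and -0.31 (p = 0.0705) with arrayWeights.

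**Figure D1:**
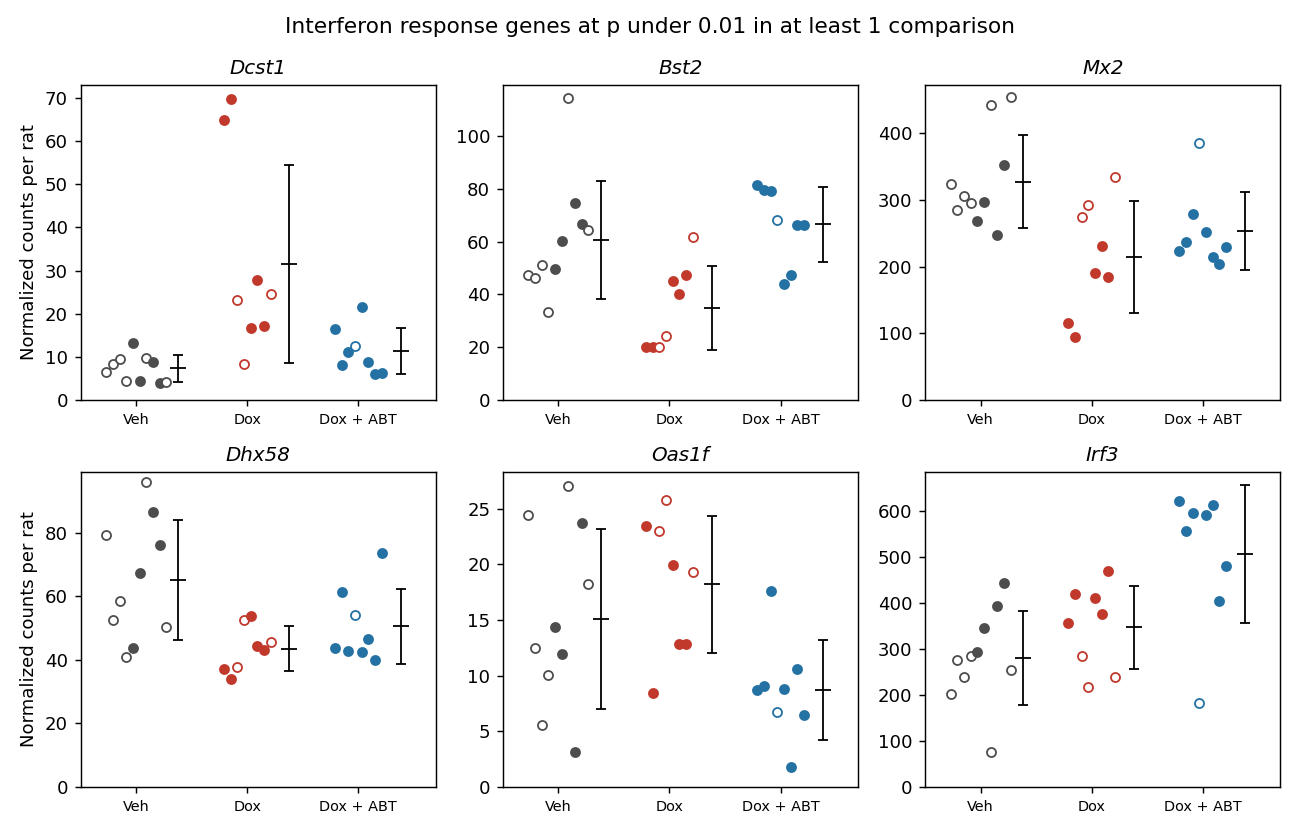
Normalized counts per rat (vertical axes, from 0) of the 6 members with p under 0.01 in at least 1 comparison, by group (Veh, Dox, Dox + ABT). Each point is 1 rat, filled for the first and open for the second kind of library, and bars are the mean ± SD. Dcst1 reached 69.7 in a Dox rat against at most 13.3 in Veh, whereas Irf3 stood highest in Dox + ABT.

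Without Dox rats 1 and 2, a choice made after seeing the data, only Dcst1 of the 4 called members still passed p under 0.01 in this comparison, where the share of all tested genes that passed was then 1.16%. Bst2 then had a log2 fold change of -0.62 (p = 0.0128, limma), Mx2 of -0.39 (p = 0.0163) and Dhx58 of -0.45 (p = 0.0191). Each of these 3 calls was lost without the pair, with the sign of the difference unchanged. Without Dox rats 5 and 7, the other pair that stood apart, 5 members passed, while the share of all tested genes that passed was 7.25%, against 2.87% with them.

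A further 4 members had p under 0.05 in limma's test without passing 0.01: Isg20 on the higher side and Oas1a, Xaf1 and Usp18 on the lower. Isg20, an RNA exonuclease, had a log2 fold change of 0.94 (SE 0.38, p = 0.0208), and of its transcript rows 1 averaged 1.14 in Veh and 11.2 in Dox, the other 5.90 and 7.49. Without Dox rats 5 and 7 it was 0.47 (p = 0.213). Oas1a, an enzyme that makes the 2-5A messenger on double-stranded RNA, had a mean of 20.6 ± 9.34 (SD, n = 10) normalized counts in Veh and 11.3 ± 7.82 (SD, n = 8) in Dox, and its log2 fold change was -0.92 (SE 0.34). Xaf1, which promotes cell death, had 27.0 ± 17.3 in Veh and 13.4 ± 7.64 in Dox, a log2 fold change of -0.92 (SE 0.36). Usp18, the protease that takes ISG15 off proteins and blocks the receptor, had 22.2 ± 11.01 in Veh and 12.8 ± 4.83 in Dox, a log2 fold change of -0.70 (SE 0.26). In each of these 3 genes, the Veh median was above 7 of the 8 Dox rats, and the ranges of the groups overlapped. Without Dox rats 1 and 2, the log2 fold change was -0.53 (p = 0.117, limma) for Oas1a and -0.58 (p = 0.13) for Xaf1. That of Usp18 was -0.31 (p = 0.195) with arrayWeights.

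**Figure D2:**
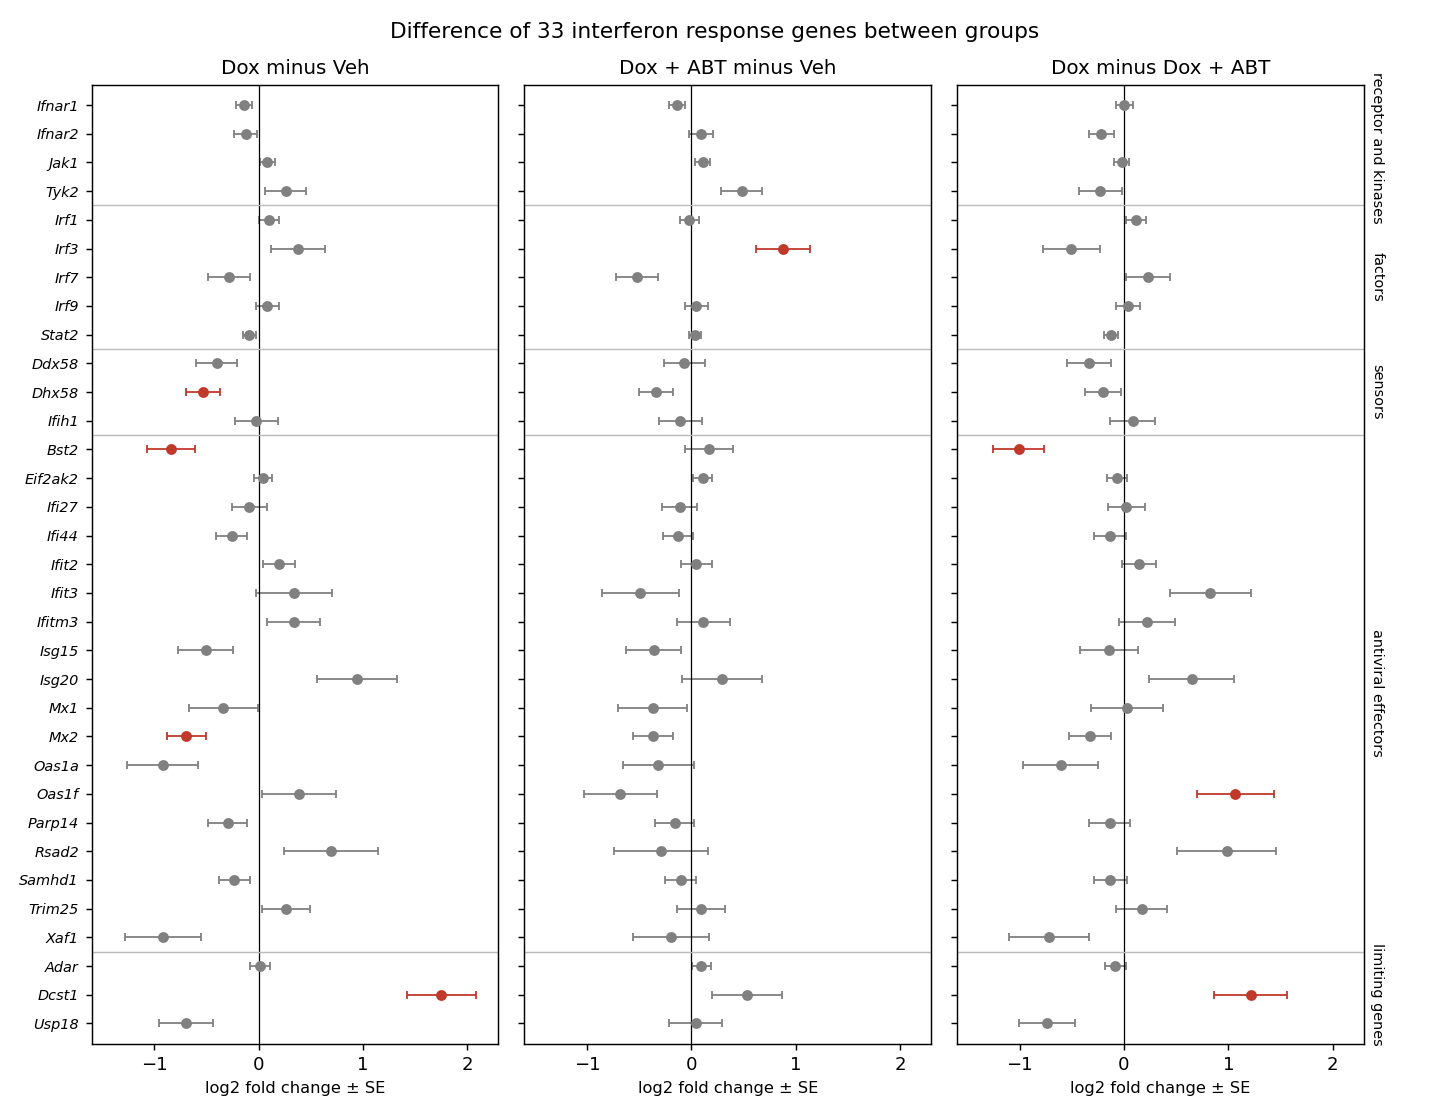
Log2 fold change ± SE (horizontal axis) of the 33 tested members, grouped by role from the receptor and its kinases to the genes that limit the response. Each panel is 1 comparison, and red points passed p under 0.01. The largest difference was that of Dcst1, 1.75 in Dox minus Veh and 1.22 in Dox minus Dox + ABT.

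The second comparison asked whether rats given doxorubicin with ABT-263 differed from Veh. Of the 33 members, 1 passed p under 0.01 (3.03%), in a comparison where 7.84% of all tested genes did (3.89% higher and 3.95% lower). This was Irf3, the factor that turns on interferon genes after a sensor has fired, and it rose. Irf3 ranged from 75.1 to 444 normalized counts (median 281) in Veh, from 218 to 471 (median 368) in Dox and from 183 to 624 (median 574) in Dox + ABT. Of the 8 Dox + ABT rats, 6 were above every Veh rat, and 1, Dox + ABT rat 4, was below the Veh median. The log2 fold change was 0.88 (SE 0.26, p = 0.00195, adjusted p = 0.109, limma). Tyk2, the receptor kinase, had a log2 fold change of 0.48 (SE 0.20, p = 0.0208), and Irf7, the factor that amplifies the interferon loop, one of -0.52 (SE 0.20, p = 0.0163). None of the 18 tested antiviral effectors had p under 0.05 here, a level without a share of all tested genes beside it. The median log2 fold change over the 33 members was -0.065, against -0.00086 over all tested genes.

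Irf3 and Tyk2 moved with a split of the libraries that was found from the values of all genes, these members included. The main axis of variation within groups separated 16 libraries, called the first kind, from 10 of a second kind, in which genes for ribosomal proteins took 1.29% to 2.08% of normalized counts against 0.624% to 1.23% in the first. The first kind held 4 rats from Veh, 5 from Dox and 7 from Dox + ABT, and the second held 6, 3 and 1. Over all 26 rats, Irf3 ranged from 294 to 624 normalized counts in the first kind and from 75.1 to 285 in the second, without overlap. Tyk2 ranged from 445 to 633 in the first kind and from 182 to 384 in the second, also without overlap. Among Veh rats alone, the other tested members overlapped between the kinds. How many of all tested genes did not overlap was not counted, so the separation cannot be read as particular to Irf3 and Tyk2.

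With a term for the kind of library in the fit, the log2 fold change of Irf3 between Dox + ABT and Veh was 0.45 (p = 0.0300, limma), and that of Tyk2 was 0.091 (p = 0.428). Irf7 was -0.42 (p = 0.064) in that fit and -0.28 (p = 0.304) in the first kind alone. Within the first kind, Irf3 averaged 553 normalized counts in 7 Dox + ABT rats and 369 in 4 Veh rats, a log2 difference of 0.58 (p = 0.000212, limma). On the axis that was cut at 0, these Dox + ABT rats scored from -9.85 to -23.7. Veh rats 5 and 6 scored -4.41 and -0.82, with Irf3 at 294 and 346. Veh rats 10 and 11 scored -25.8 and -37.9, with Irf3 at 393 and 444. Position on the axis within the kind was not part of the test. Within the second kind, Irf3 was 183 in the only Dox + ABT rat and averaged 222 in 6 Veh rats, and no test can be made there. Between Dox and Veh, Mx2 had a log2 difference of -0.89 within the first kind and -0.20 within the second, and Dcst1 one of 2.09 and 1.19. Bst2 had -0.93 and -0.80, and Dhx58 -0.65 and -0.42. Whether these differ between the kinds was not tested. Irf3 was also lower in Dox than in Dox + ABT within the first kind, with a log2 difference of -0.43 (p = 0.00183), which was -0.50 (p = 0.0751) over all rats and -0.27 (p = 0.167) with the term for kind.

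**Figure D3:**
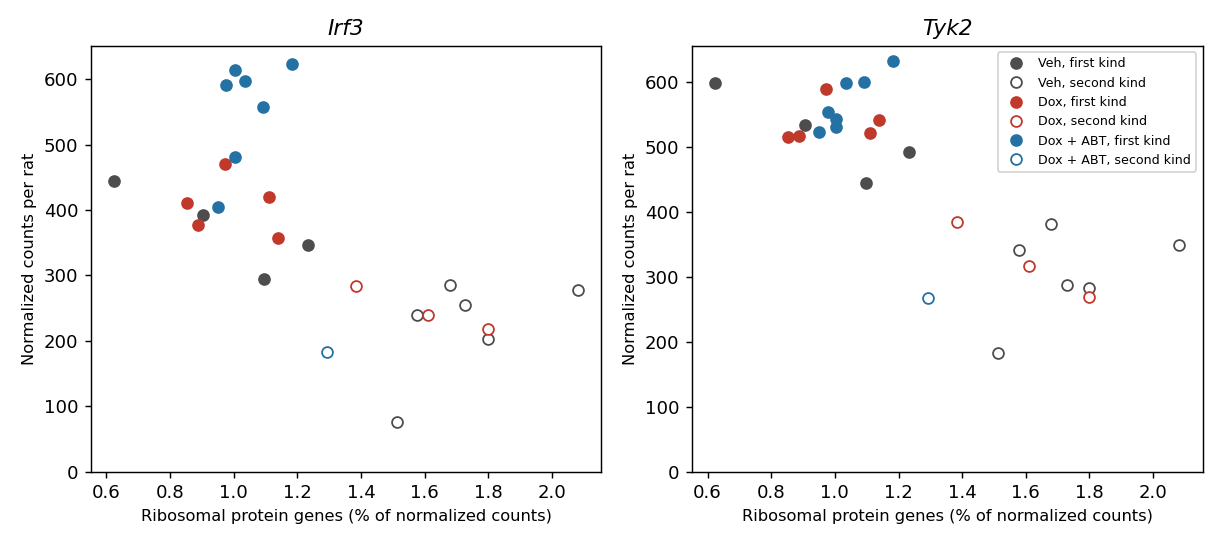
Normalized counts of Irf3 and Tyk2 in each rat (vertical axes) against the share of normalized counts in ribosomal protein genes (horizontal axes, percent). Colors mark groups, filled points the first and open points the second kind of library. In both genes the open points lie below every filled point, and among filled points Irf3 averaged 553 in Dox + ABT and 369 in Veh.

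The third comparison asked whether ABT-263 changed these genes in doxorubicin-treated rats, and it shares its Dox rats with the first. Between Dox and Dox + ABT, 3 of the 33 members (9.09%) passed p under 0.01, where 4.03% of all tested genes did. Without the 4 members that the study picked, 1 of 29 was called (3.45%). Dcst1 and Oas1f were higher in Dox (2.32% of all genes were called higher), and Bst2 was lower (1.71% lower). Bst2 in all 8 Dox rats was below the Dox + ABT median and in 5 of the 8 below every Dox + ABT rat, with a log2 difference of -1.01 (SE 0.24, p = 0.000241, adjusted p = 0.121, limma). That of Dcst1 was 1.22 (SE 0.35, p = 0.00172), and it was 0.76 (p = 0.0240) without Dox rats 1 and 2. Bst2 stayed past the threshold without this pair, at -0.79 (p = 0.00309). Usp18 had a log2 difference of -0.74 (SE 0.27, p = 0.0109), Ifit3 one of 0.83 (p = 0.0418) and Rsad2 one of 0.98 (p = 0.0481). Ifit3 was 0.27 (p = 0.41) without Dox rats 1 and 2, and Rsad2 was 0.099 (p = 0.715) without Dox rats 5 and 7. Over the 33 members the median was -0.067, against -0.0014 over all tested genes.

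Oas1f, a second 2-5A synthetase of the Oas1 family, ranged from 3.14 to 27.1 normalized counts (median 13.4) in Veh, from 8.395 to 25.8 (median 19.6) in Dox and from 1.75 to 17.6 (median 8.73) in Dox + ABT. Every Dox + ABT rat was below 5 of the 8 Dox rats, while both groups lay within or near the range of Veh. The log2 difference between Dox and Dox + ABT was 1.07 (SE 0.37, p = 0.00742, limma). Oas1f was assembled from 4 transcript rows that did not move together. Its row with the highest mean averaged 12.1 in Veh rats, 6.74 in Dox rats and 5.99 in Dox + ABT rats, whereas another averaged 0.18, 6.81 and 0.044. With only the highest row of each gene, the log2 difference was 0.49 (p = 0.379), and the call was lost in 14 of the 33 alternatives tried. With single rats left out the difference ran from 0.83 to 1.23, and with library kind as a covariate it was 0.98 (p = 0.0141). Oas1 genes are near-identical copies, so how reads were divided among them and their rows is uncertain. Oas1a, which had 3 rows, is subject to the same limit.

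By role, the receptor and its kinases come first. Ifnar1 averaged 1090 ± 108 (SD, n = 10) normalized counts in the Veh rats, 991 ± 90.4 (n = 8) in the Dox rats and 993 ± 133 (n = 8) in Dox + ABT. Ifnar2 averaged 129 ± 15.7, 120 ± 29.0 and 137 ± 8.21, and Jak1 averaged 2185 ± 259, 2308 ± 135 and 2347 ± 176. Tyk2 averaged 389 ± 128, 457 ± 117 and 531 ± 113. None of these 4 genes passed p under 0.01 in any of the 3 comparisons.

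Stat2 and Irf9 are subunits of the transcription complex. Stat2 averaged 781 ± 58.5 in Veh rats, 735 ± 60.3 in Dox rats and 800 ± 42.9 in Dox + ABT rats, and Irf9 averaged 195 ± 27.9, 207 ± 30.7 and 202 ± 38.5. Irf1, a factor that interferon itself induces, averaged 153 ± 18.7, 164 ± 17.2 and 151 ± 17.4. Irf7 averaged 96.8 ± 32.2, 77.2 ± 16.4 and 67.5 ± 23.3, and Irf3, given above, averaged 281 ± 103, 347 ± 90.8 and 507 ± 151. Of the 5 factors only Irf3 passed p under 0.01, in the comparison of Dox + ABT with Veh.

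The RNA sensors Ddx58 (RIG-I) and Ifih1 (MDA5) did not pass p under 0.01 in any comparison. Ddx58 averaged 43.8 ± 15.6 in Veh rats, 31.8 ± 7.38 in Dox rats and 40.9 ± 11.44 in Dox + ABT rats, with a log2 fold change of -0.40 (p = 0.0517, limma) between Dox and Veh. Ifih1 averaged 36.1 ± 10.7, 36.1 ± 11.6 and 33.1 ± 7.66. Sting1, the gene that takes the place of Tmem173, averaged 54.4 ± 12.4 in Veh rats, 34.5 ± 6.93 in Dox rats and 41.3 ± 5.77 in Dox + ABT rats. Its Veh median lay above all 8 Dox rats and all 8 Dox + ABT rats, and its log2 fold change between Dox and Veh was -0.63 (SE 0.15, p = 0.00025, adjusted p = 0.114, limma).

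Among the 18 tested antiviral effectors, 8 were higher and 10 lower in Dox than in Veh, and 6 were higher and 12 lower in Dox + ABT than in Veh. Ifi27, a mitochondrial protein induced by interferon, averaged 1828 ± 531 in Veh rats, 1691 ± 405 in Dox rats and 1650 ± 316 in Dox + ABT rats. Eif2ak2 (PKR), Ifi27, Ifi44, Ifit2, Ifitm3, Isg15, Mx1, Parp14, Samhd1 and Trim25 passed p under 0.05 in no comparison. Of the limiting genes, Adar, which edits double-stranded RNA and so keeps it from the sensors, averaged 1776 ± 278, 1783 ± 196 and 1891 ± 247.

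Isg15, the ubiquitin-like modifier that is a hallmark of the response, ranged from 30.05 to 67.7 normalized counts (median 41.6) in Veh, from 8.21 to 55.5 (median 34.2) in Dox and from 16.3 to 43.5 (median 35.2) in Dox + ABT. Its 2 lowest values of the 26 were in Dox rats 1 and 2, with 16.1 and 8.21. Its log2 fold change between Dox and Veh was -0.51 (SE 0.26, p = 0.0639, limma), and -0.097 (p = 0.639) without this pair.

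**Figure D4:**
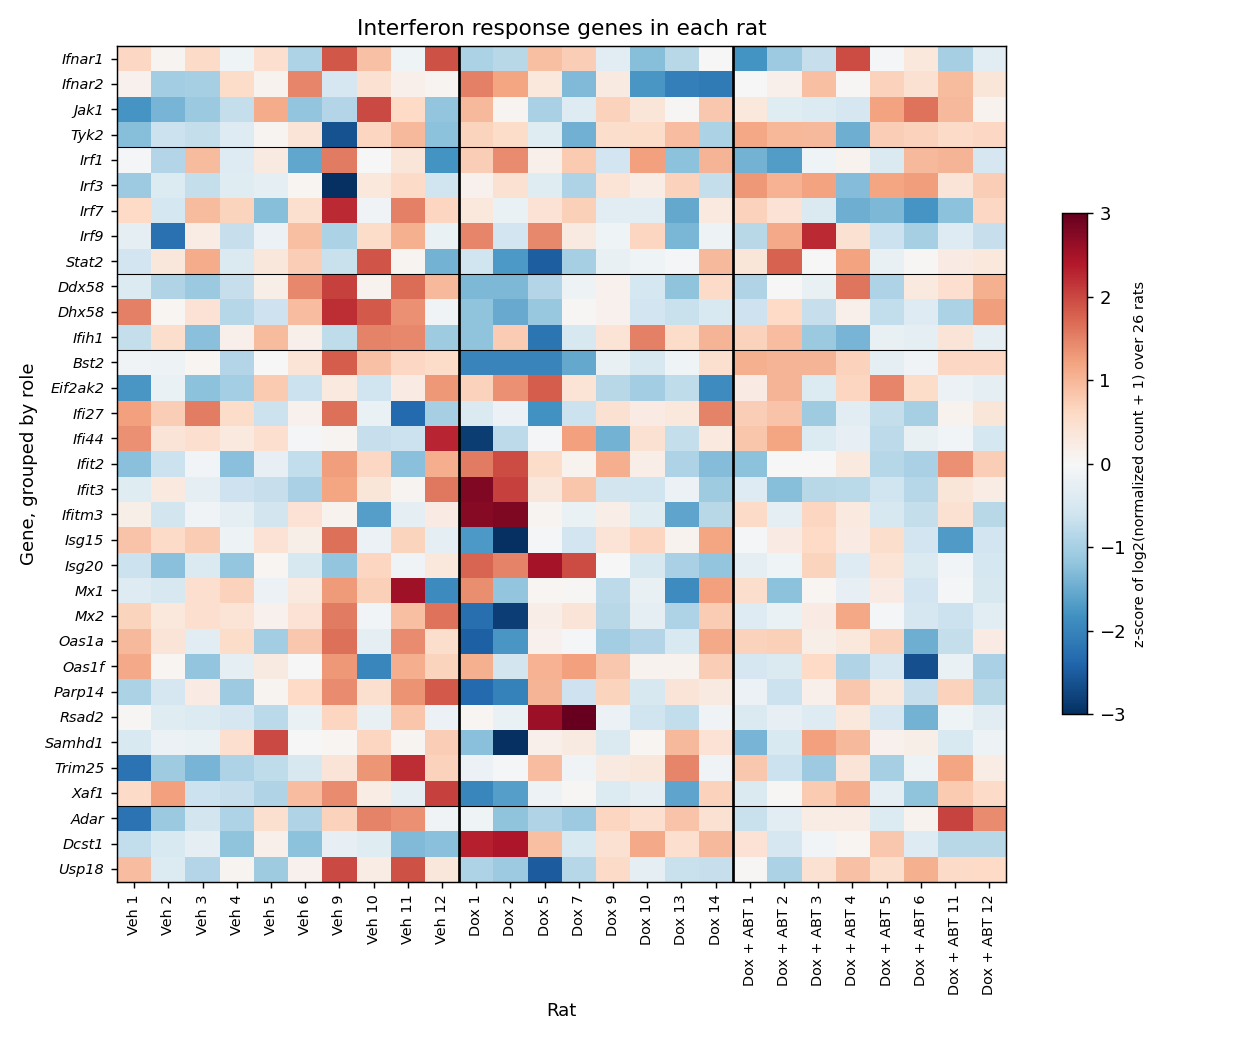
z-scores of log2(normalized count + 1) over the 26 rats for the 33 tested members (vertical, grouped by role) in each rat (horizontal, grouped by treatment). Red is above and blue below the mean of the gene. Veh rat 9 had the highest value of 10 members, while Dox rats 1 and 2 each had the lowest value of 5 members. Such extremes were not counted over all tested genes.

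Some rats stood apart within their group. In Dox rats 5 and 7, Rsad2 (viperin), an enzyme that makes a chain-ending nucleotide, stood at 170 and 336 normalized counts, whereas the other 24 rats had 8.03 to 46.2. The same pair had the highest Isg20, 44.6 and 31.4 normalized counts, against 3.46 to 13.4 in Veh and 6.02 to 13.7 in Dox + ABT. Summed markers of red cells (Hba-a1, Hba-a2, Hbb and Alas2) in these rats were 91669 and 128552 normalized counts, against 2327 to 25997 in Veh, and the part of blood in these values was not tested. Without both rats the log2 fold change of Rsad2 between Dox and Veh was -0.19 (p = 0.465, limma) and with them 0.69 (p = 0.135).

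Dox rats 1 and 2 had a mixed pattern. Ifit3, which binds viral RNA together with other IFIT proteins, stood at 96.8 and 62.2 normalized counts in them, against 9.72 to 47.2 in Veh, and Ifitm3, which blocks viral fusion, at 159 and 163 against 28.3 to 64.5. Isg20 was 27.5 and 23.5 there, also above every Veh and Dox + ABT rat. Oas1a was 2.85 and 4.69, Parp14 40.8 and 44.6, and Xaf1 4.74 and 5.87, each below every Veh rat. Ifit3 had a log2 fold change of 0.34 (p = 0.364, limma) between Dox and Veh and of -0.22 without this pair. Among summed markers, astrocytes were at 31968 and 31180 normalized counts in this pair (36662 at the lowest in Veh, and a median of 33174 over all 8 Dox rats), fibroblasts and meninges at 159 and 173 (177 at the lowest in Veh, and a median of 187 in Dox), choroid plexus at 191 and 176 (178 at the highest in Veh) and red cells at 25720 and 29116 (25997 at the highest in Veh). In Dox + ABT, choroid plexus markers reached 400 (median 172), so the level of this pair was ordinary there. Red cell markers reached 11576 in Dox + ABT. The lowest Dox + ABT sums were 35299 for astrocytes and 171 for fibroblasts and meninges. The part of these cell types in the member values was not tested. Dox rats 1 and 2 were both of the first kind of library, and rats 5 and 7 of the second.

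**Figure D5:**
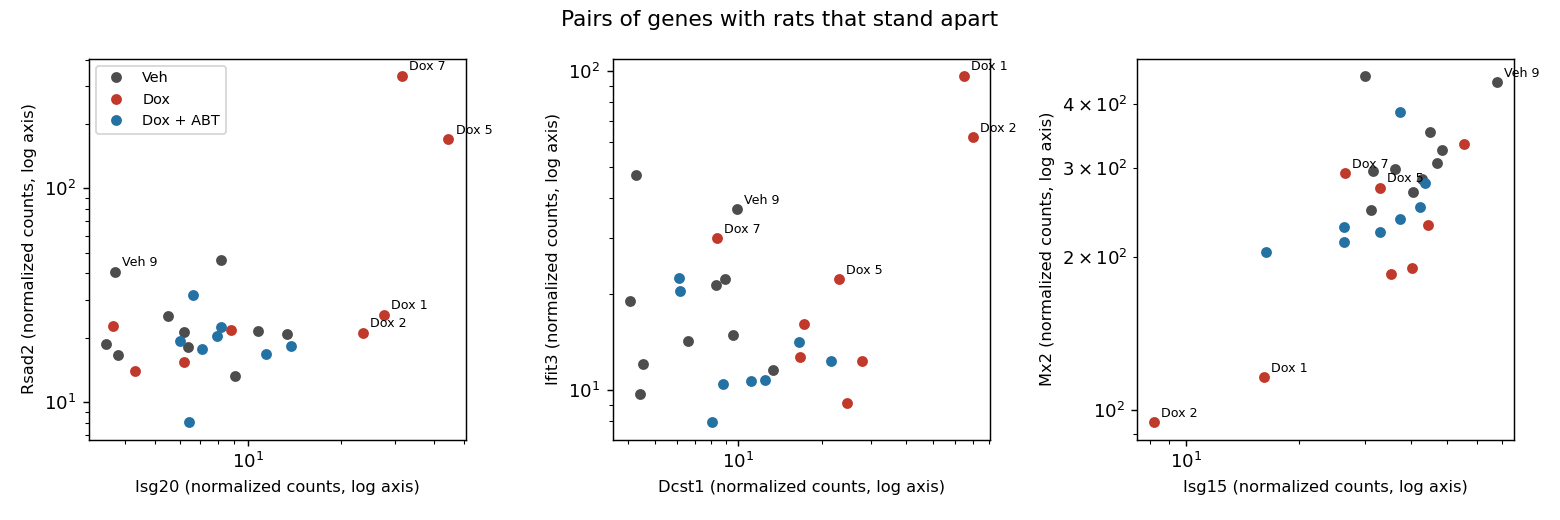
Normalized counts of pairs of members in each rat, both axes logarithmic: Rsad2 against Isg20, Ifit3 against Dcst1, and Mx2 against Isg15. Colors mark the groups, and named points are the rats described in the text. Dox rats 5 and 7 stand apart in the first panel with Rsad2 at 170 and 336, and Dox rats 1 and 2 in the other panels with Dcst1 at 64.9 and 69.7 and Isg15 at 16.1 and 8.21.

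The spread within groups was smallest in Dox + ABT, where 7 of the 8 libraries were of the first kind. The median SD of the 33 members on the log2 scale was 0.42 in Veh rats, 0.41 in Dox rats and 0.33 in Dox + ABT rats, against 0.31, 0.31 and 0.24 over all tested genes. Of the 33 members, 17 had their largest SD in Dox, 13 in Veh and 3 in Dox + ABT, and among all tested genes these shares were 43.7%, 40.0% and 16.3%. The highest value of a member was in a Veh rat for 19 members, 10 of them in Veh rat 9 alone, in a Dox rat for 9 and in a Dox + ABT rat for 5. The lowest was in a Veh rat for 12, in a Dox rat for 16 and in a Dox + ABT rat for 5. Extremes were not counted over all tested genes and the groups differ in size, so these counts show no trait particular to the members.

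The rest of the pathway was followed in a list of 111 further genes, assembled by role from general knowledge. Of these, 78 were tested, 10 had a mean under 5 normalized counts and 23 were not listed under their names, among them all 10 interferon ligands. Between Dox and Veh, 2 of the 78 were called higher (1.02% of all tested genes) and 8 lower (1.85%), with a median log2 fold change of -0.094. Among the higher genes was Socs3, an inhibitor of JAK kinases. Among the lower genes were the endosomal DNA sensor Tlr9 (-1.03), its trafficking partner Unc93b1 (-0.45), the guanylate-binding GTPase Gbp2 (-0.81), the GTPase Irgm (-0.67), Parp9 (-0.38) and the immunoproteasome subunit Psmb9 (-0.61), each as a log2 fold change, and Lgals9 and Uba7 completed the 8. Tlr9 averaged 17.3 ± 6.95 normalized counts in Veh and 7.87 ± 3.48 in Dox. Socs3 ranged from 4.42 to 16.0 normalized counts in Veh and from 7.51 to 182 in Dox, a log2 fold change of 1.45 (p = 0.00166, limma). Without Dox rats 1 and 2, none of the 78 was called in limma's test, and 8 had an unadjusted p under 0.05, when 1.16% of all tested genes were called. Of the same list, Zc3hav1, Tbkbp1 and Stat3 were among the genes that the study picked on these rats.

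Between Dox + ABT and Veh, 5 of the 78 were called (1 higher and 4 lower), with a median log2 fold change of -0.12. This was 6.41% of the list, against 7.84% of all tested genes. The higher gene was Ikbke, a kinase of IRF3, which averaged 66.9 ± 31.6 in Veh and 115 ± 32.9 in Dox + ABT. Irf2bp1, Trex1, Parp10 and Psmb9 were lower, and in the first kind of library alone none of the 78 was called in limma's test, while 6 had an unadjusted p under 0.05 and 1.1% of all tested genes were called. Between Dox and Dox + ABT, Irf2bp1, Zc3hav1, Socs3 and Cmpk2 were higher and Parp9 and Lgals9 lower in Dox, 6 of 78 (7.69%), with a median of -0.039. Of all tested genes, 4.03% were called there (2.32% higher and 1.71% lower). No gene of this list passed an adjusted p under 0.05, the smallest being 0.108.

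Markers of cell types also differed between groups. Of 12 microglial markers, 5 were called lower and 0 higher in Dox than in Veh, where 1.85% of all tested genes were lower and 1.02% higher, among them Aif1 (log2 fold change -0.61, p = 0.00237) and Cx3cr1 (-0.64, p = 0.00274). The 12 held 9 with a lower and 3 with a higher mean, the latter being the complement genes C1qa (0.18), C1qb (0.12) and C1qc (0.27), none of which passed. Summed over the list, microglial markers ranged from 4977 to 8820 (median 7633) in Veh, from 4875 to 7119 (median 6536) in Dox and from 4801 to 7846 (median 5685) in Dox + ABT. In Dox + ABT against Veh, all 12 had a negative log2 fold change. Of these, 2 were called lower, Csf1r (-0.48) and Trem2 (-0.48), where 3.95% of all tested genes were. In Dox against Dox + ABT, 0 of the 12 microglial markers passed p under 0.01 in limma's test, where 4.03% of all tested genes did, and 1 had an unadjusted p under 0.05. Astrocyte markers had 3 of 6 called lower in Dox than in Veh, with positive log2 fold changes of at most 0.17 in the other 3, and endothelial markers 2 of 8 higher and 1 lower. Oligodendrocyte markers had 2 of 6 called lower, and markers of fibroblasts and meninges 1 of 4. Blood leukocyte markers summed to 29.7 to 131 normalized counts in Veh and 8.19 to 152 in Dox. Their part in the member genes was not tested. Markers of dentate granule cells, led by Prox1 and C1ql2, summed to 8854 to 13397 in Veh, 9094 to 12294 in Dox and 8183 to 10836 in Dox + ABT, so granule cell markers were present in all 26 libraries. Markers of the neighbouring CA fields were uneven between rats and summed to 1817 to 13225 in Veh (median 6878), 1571 to 11821 in Dox (median 5463) and 2111 to 18701 in Dox + ABT (median 3265). Estimated depth was 10121200 to 24274000 reads per library.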

How the data were processed

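RNA from the DG of 26 rats was sequenced, 1 library per rat, and the groups were taken from the sample labels. According to the methods of the study, the authors selected poly(A) RNA, sequenced it on an Ion Proton, used STAR for alignment to rn6 (version 2.5.3a in the submitters' processing notes) in Partek Flow and normalized by Median Ratio. The deposited signal values are these normalized counts, in 24012 transcript rows, and they cannot be read as raw counts. After summing the rows of a gene, 74.8% to 85.3% of low values per library in genes with several rows were whole reads within 0.02 reads. In genes with 1 row, 73.3% to 80.8% were. The remaining values were not whole, raw counts were not rebuilt, and no count test was run. The authors' own test was DESeq2 at p under 0.01.

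Rows were summed by Ensembl gene ID, and the genes that passed the mean filter of 5 were fitted on log2(value + 1) by limma 3.58.1 under R 4.3.3 (eBayes with trend), with 3 groups and no covariate. The median estimated depth was 16645300 reads in Veh, 15617800 in Dox and 15091600 for Dox + ABT, and members with few normalized counts rest on few reads. The members and the gene lists were chosen with earlier results of these data known. All members are accounted for: those with p under 0.01 are given by range, receptors, kinases and factors by group means, the 2 highest and 2 lowest antiviral effectors by name, and the rats and genes that stand apart were named after their values were seen. At most 10 further pathway genes were to be described by smallest p, and the others called are only named, apart from values that are not reported here. Kinds of library were split by the sign of the first principal component of within-group deviations, using genes whose mean was 20 or more. Promoters came from a RefSeq table of GRCr8, not the authors' build, and were matched by symbol. Replicate numbers name different rats, and for the 16 same-numbered pairs the correlation of deviations ran from -0.171 to 0.298, with 6 over 0.1, so numbers were not taken as pairs. Python 3.11.15 with matplotlib 3.10.9 drew the figures. The alternatives are listed with their effects at the end.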

Additional observations from a re-analysis of the deposited data

Results flagged for a closer look

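Within groups, 7 of 99 combinations of member and group held 1 rat far from the others by Dixon's gap test, at a level that chance passes in about 1 in 20. Irf3 was 75.1 normalized counts in Veh rat 9, where the next lowest Veh rat had 203. In Dox + ABT rat 4, Irf3 was 183 normalized counts, with the next at 405, and Tyk2 was 267, with the next at 523. Both rats had libraries of the second kind. Irf7 was 46.1 in Dox rat 13, with the next at 68.9. Rsad2 was 8.03 in Dox + ABT rat 6, with the next at 16.7. Samhd1 was 179 in Veh rat 5, the highest of its group, with the next at 135. Ifitm3 was 28.3 in Veh rat 10, with the next at 43.7.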

How the results depend on the processing

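Of the 22 fold changes of members that were recomputed, 3 without a call changed sign in Dox against Veh: Isg20 was -0.087 with the highest row of each gene, Rsad2 was -0.25 in the first kind only and -0.19 without Dox rats 5 and 7, and Ifit3 was -0.22 without Dox rats 1 and 2. With pseudocounts of 0.5 and 5, no filter, no variance trend, robust eBayes, TMM rescaling or only the 2 compared groups each count of members stayed within 1.5 times the main one. Dox against Veh had 4 members called (1 higher and 3 lower), 5 with arrayWeights (3 higher and 2 lower), 1 without Dox rats 1 and 2, and 4 to 7 with a rat left out, the 7 without Veh rat 5 or Dox rat 14. Dox + ABT against Veh had 1 member called, 4 with arrayWeights, 2 with quantile normalization, 0 with library kind as a covariate (limma, 1 at an unadjusted p under 0.05), and 1 to 2 with a rat left out (2 without Veh rat 2, 5 or 11 or Dox + ABT rat 1, 2, 4 or 12). Dox against Dox + ABT had 3, 1 with a mean of at least 20, where Dcst1 and Oas1f were not tested, and 2 to 4 with a rat left out (2 without Dox rat 1, 5, 7 or 14 or Dox + ABT rat 6 or 12).

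The other pathway genes had 10 called in Dox against Veh, 20 with arrayWeights, 2 without Dox rats 1 and 13 (220 of all tested genes), 0 without Dox rats 1 and 2 (181 of all tested genes), and 4 to 14 with a rat left out (4 without Dox rat 2, 6 without Dox rat 1). Dox + ABT against Veh had 5, 25 with arrayWeights, 1 with library kind as a covariate, 0 in the first kind only, and 2 to 8 with a rat left out (2 or 3 without Veh rat 2, 3, 9 or 12 or Dox + ABT rat 3, 5, 11 or 12, and 8 without Veh rat 10 or 11). Dox against Dox + ABT had 6, 10 with arrayWeights, 3 without Dox rats 1 and 2, 10 without Dox rats 5 and 7, and 5 to 8 with a rat left out. With the replicate number as a block, 8 members were called in Dox against Veh (3 higher and 5 lower), with 765 of all tested genes, and the block ended the call of Oas1f in Dox against Dox + ABT, with a log2 difference of 0.99.

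Over all tested genes, 448, 1222 and 629 were called in the 3 comparisons, in the order above, 3150, 5297 and 1612 with arrayWeights, and 421, 214 and 743 with library kind as a covariate. Of the single genes, Oas1f lost its call in 14 of 33 alternatives, the most of any. With arrayWeights Bst2 was -0.37 and Dhx58 -0.31 in Dox against Veh, past the threshold in neither, and Dhx58 was -0.50 without Dox rats 1 and 13. The causes were not tested. Genes near 5 normalized counts rest on few reads, the 10 interferon ligands could not be followed, and the comparisons of groups and of kinds of library overlap, since 7 of the 8 Dox + ABT rats were of the first kind.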
